A study of Homo sapiens with 12 samples.

Results

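A set of 87 genes was described that gave almost no reads in untreated Huh7 cells, a line from a human liver carcinoma, and gave reads in every sample treated with GO–Rg3–DOX. Genes were chosen by their counts alone. Each had at most 3 counts summed over the 3 untreated samples and at least 10 counts in each of the 3 GO–Rg3–DOX samples, and histone and mitochondrial genes were left out. Of the 63677 genes of the count table, 41523 outside the excluded groups were as silent in untreated cells, and 0.21% of these met the rule. The GO–Rg3–DOX and untreated samples chose these genes, so their difference between these groups is a description and was not tested.

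RNA was sequenced from 12 samples of Huh7 cells in 4 groups of 3: cells in medium only, and cells treated for 6 h with graphene oxide (GO) at 400 µg/mL, with GO carrying the ginsenoside Rg3 (GO–Rg3) at 400 µg/mL, or with GO carrying Rg3 and doxorubicin (GO–Rg3–DOX) at 100 µg/mL. The carrier dose therefore differed between GO–Rg3–DOX and the other 2 treatments, and dose and drug cannot be told apart in this design. Cells treated with free doxorubicin were not analysed here. All samples came from a single cell line, and the labels do not say whether the replicates were separate cultures, so p-values measure the spread between these samples only.

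Doxorubicin intercalates into DNA and traps topoisomerase II on it, which leaves double-strand breaks, and it can displace histones from chromatin. GO is a sheet-like carbon carrier that cells take up at the plasma membrane, and Rg3 is a saponin of ginseng with antioxidant activity. Genes that are silent in a liver cell line include those of other lineages, such as blood, muscle and nerve, and inducible genes such as cytokines and immediate early transcription factors, whose transcription starts within minutes to hours of a stimulus.

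By the GENCODE annotation lifted to GRCh37, 52 of the 87 genes were protein-coding, 23 were long noncoding RNAs, 10 were pseudogenes and 1 was a small nuclear RNA. The remaining gene, RP11-388M20.9, had no entry under its identifier. The 86 genes with an entry lay on 20 chromosomes, with 15 on chromosome 1, 9 on chromosome 19, 8 on chromosome 6 and 7 on chromosome 16. Protein-coding genes made up 60.5% of them, against 14.3% of 34168 other silent genes and 80.3% of 16622 tested genes. Their median exonic length of 2709 bases was above the 527 bases of the other silent genes and below the 4621 bases of tested genes. A longer transcript gives more counts at the same level, so the minimum of 10 counts favoured long genes.

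Promoters could be matched in RefSeq (GRCh38.p14, from 250 bases before to 50 bases after each start) for 40 of the 87 genes. Those of IL6 and PPBP, genes for an inflammatory cytokine and a platelet chemokine, are shown because the first held a searched NF-kappaB element and the second a TATA box. Each is the 250 bases before the start, read 5′ to 3′ on the gene's strand, with the match in capitals. The IL6 sequence is chr7:22726950-22727199 on the plus strand, and its match begins 73 bases before the start. The PPBP sequence is chr4:73988191-73988440 on the minus strand, and its match begins 31 bases before the start.
IL6: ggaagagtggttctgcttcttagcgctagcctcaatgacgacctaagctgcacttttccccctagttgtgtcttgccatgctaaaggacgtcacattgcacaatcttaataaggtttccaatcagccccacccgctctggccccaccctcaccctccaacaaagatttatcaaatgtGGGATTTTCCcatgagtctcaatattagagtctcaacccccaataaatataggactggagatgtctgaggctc
PPBP: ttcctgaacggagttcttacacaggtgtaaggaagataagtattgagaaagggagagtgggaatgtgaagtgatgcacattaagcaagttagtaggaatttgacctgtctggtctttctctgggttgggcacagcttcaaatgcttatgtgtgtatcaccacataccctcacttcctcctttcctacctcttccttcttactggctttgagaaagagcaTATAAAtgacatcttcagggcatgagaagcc

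The motifs searched, on either strand, were held by few of the 40 promoters. The TATA box, TATAAA, stood in 12.5% of them (ACTC1, IL17F, IRF5, LTA and PPBP) and in 14.0% of 27305 promoters of all genes. The consensus NF-kappaB element also stood in 12.5% of them (GAB3, HHATL-AS1, IL6, LTA and OR9G1), against 7.09% of all promoters. The AP-1 element TGAGTCA stood in 5% and 6.05%, and the EGR element (GCGTGGGCG or GCGGGGGCG) in 2.5% and 6.95%. The serum response element, or CArG box, stood in 5% (ACTC1 and FGFBP2) and 1.60%, and the cyclic AMP element TGACGTCA in none of the 40 and in 2.25% of all promoters. None of the motifs contains another, and none was common to the set.

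**Figure D1:**
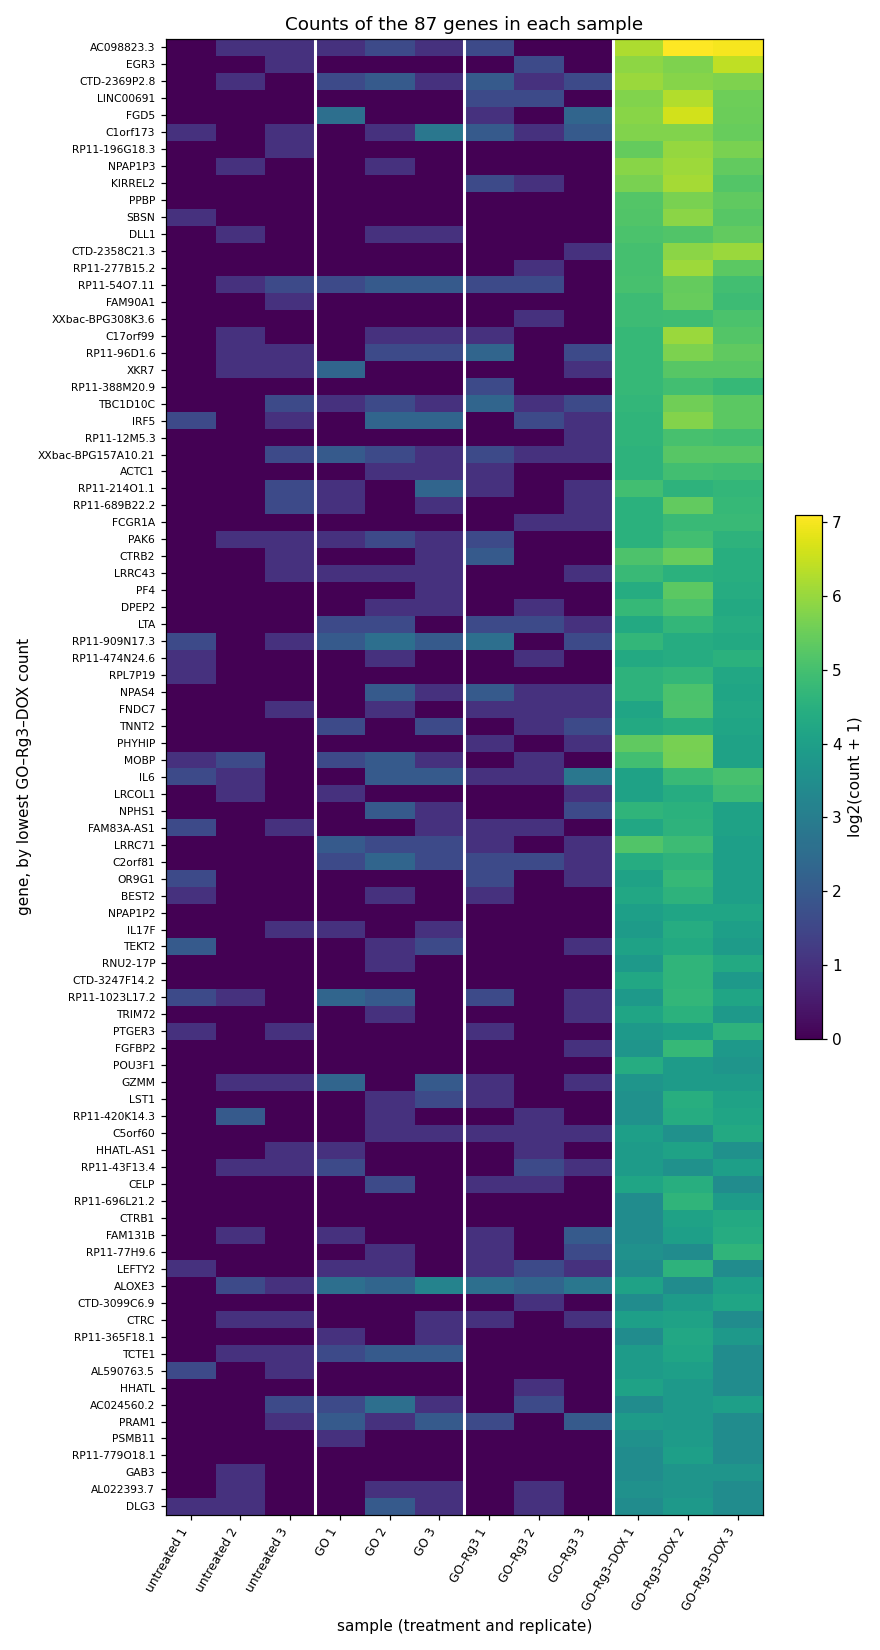
Counts of the 87 genes (rows, in the order of their lowest GO–Rg3–DOX count) in the 12 samples (columns), coloured by log2(count + 1), with white lines between the 4 groups. The first 9 columns hold counts of 0 to 8 and the 3 GO–Rg3–DOX columns counts of 10 to 136.

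Untreated, GO and GO–Rg3 samples all gave near-silent counts, and the genes were read throughout GO–Rg3–DOX samples only. The 87 genes together had 26, 27 and 36 counts in the untreated samples, 65, 85 and 76 with GO, 73, 46 and 65 with GO–Rg3, and 2031, 2756 and 2152 with GO–Rg3–DOX. In CPM, counts scaled to the size of the library by the TMM method, the sums were 0.69 to 0.86 in untreated cells, 2.15 to 2.55 with GO, 1.48 to 1.97 with GO–Rg3 and 82.1 to 99.1 with GO–Rg3–DOX. Of the 87 genes, 37 had no count in any untreated sample, and 7 had no count in any of the 9 samples without doxorubicin. These 7 were PPBP, POU3F1, NPAP1P2, CTD-3247F14.2, RP11-696L21.2, CTRB1 and RP11-779O18.1. The depth was 27802871 to 38877420 counts per sample, and 3 counts corresponded to 0.0707 to 0.124 CPM.

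The genes stayed low with GO–Rg3–DOX. Their mean there ran from 0.42 to 4.26 CPM with a median of 0.815 CPM, against a median of 8.86 CPM for the 17092 genes tested. The median gene of the set lay above 19.7% of tested genes, and the highest above 40.2%. Divided by exonic length, the levels of 86 genes ran from 0.0533 to 3.72 CPM per kilobase with a median of 0.364, and 15 reached 1. The 52 protein-coding genes had a median of 0.268 CPM per kilobase, the 23 long noncoding RNAs 0.641 and the 10 pseudogenes 0.761. Against a floor of 3 counts over the untreated group, the 37 genes without an untreated count were at least 16.6-fold to at least 93.5-fold higher, with a median bound of 27.5-fold. The other 50 genes, with 1 to 3 untreated counts, had ratios of 18.5 to 278 with a median of 59.8, and the lowest limit of their exact 95% intervals, which cover counting error only, was 5.88. The set was so defined that some excess had to appear.

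Genes for secreted signals and their receptors formed the largest group with a named role, 10 genes. PPBP and PF4 encode chemokines stored in platelet granules. PPBP (chr4:74852156-74853907 in GRCh37, minus strand) had no count in untreated, GO or GO–Rg3 samples and 36, 50 and 40 counts with GO–Rg3–DOX. PF4, 4411 bases from it on the same strand, had 1 count in a single GO sample and none in the other samples without doxorubicin, and 20, 39 and 20 counts with GO–Rg3–DOX. For these 2 genes, as for all 87, the rule itself held untreated and GO–Rg3–DOX counts apart, so their lack of overlap is no result. The level of PPBP with GO–Rg3–DOX was 1.60 ± 0.17 CPM (SD, n = 3) and that of PF4 0.996 ± 0.353 CPM.

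DLL1, a ligand of Notch receptors, had 0, 1 and 0 untreated counts, 0, 1 and 1 with GO, none with GO–Rg3 and 33, 35 and 41 with GO–Rg3–DOX. Its 3 GO–Rg3–DOX samples were close together at 1.39 ± 0.16 CPM. C17orf99, a secreted protein of lymphoid cells, had 0, 1 and 0 untreated counts and 26, 65 and 36 with GO–Rg3–DOX, and the second of these samples stood above the others. After GO it had 0, 1 and 1 counts, and with GO–Rg3 1, 0 and 0.

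LTA, IL6 and IL17F were the genes of the set in a list, by symbol, of cytokines, chemokines and TNF ligands. LTA encodes lymphotoxin alpha and lies next to TNF. It had no untreated count, 2, 2 and 0 counts with GO, 2, 2 and 1 with GO–Rg3 and 19, 25 and 20 with GO–Rg3–DOX. IL6 (chr7:22765503-22771621 in GRCh37, plus strand) had 2, 1 and 0 untreated counts, 0, 3 and 3 with GO, 1, 1 and 6 with GO–Rg3 and 16, 27 and 32 with GO–Rg3–DOX, so that a single GO–Rg3 sample stood out among its low values. IL17F, a cytokine of helper T cells, had at most 1 count in any sample without doxorubicin and 14, 20 and 15 with GO–Rg3–DOX. Of the 94 silent genes of that list 3 were in the set, or 3.19% against 0.21% of all eligible silent genes. The 2 shares are of unlike genes, since only 14.3% of the other silent genes were protein-coding and their median exonic length was 527 bases. The list was chosen with earlier results known, and 3 genes are too few to read a difference from. PPBP, PF4, C17orf99 and LEFTY2, also for secreted signals, had symbols outside the list. None of 28 silent genes for interleukin, chemokine and TNF receptors was in the set, and that list is too short to tell 0 from the 0.21% of all eligible silent genes. The prostaglandin E receptor gene PTGER3, the TGF-beta family ligand LEFTY2 and FGFBP2, a secreted protein of cytotoxic lymphocytes, completed the group with 10 to 26 counts in each GO–Rg3–DOX sample.

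**Figure D2:**
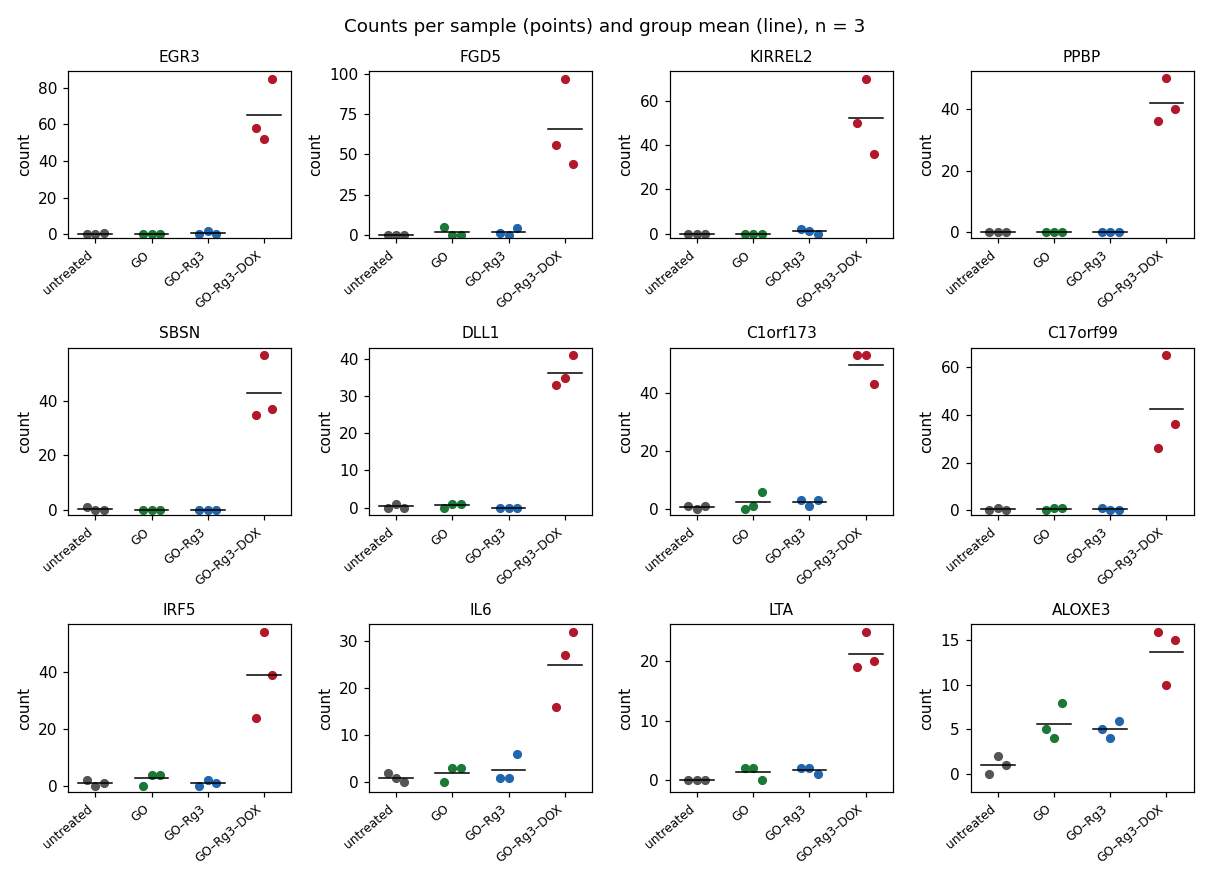
Counts per sample of 12 genes of the set, with a point for each sample, a line at the mean of each group of 3 and a linear axis from just below 0 in each panel. In EGR3, PPBP and SBSN no sample without doxorubicin exceeds 2 counts, while ALOXE3 holds 4 to 8 counts with GO and 4 to 6 with GO–Rg3.

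Transcription factor genes included EGR3, a zinc finger factor of the immediate early class. EGR3 had 0, 0 and 1 untreated counts, none with GO, 0, 2 and 0 with GO–Rg3 and 58, 52 and 85 with GO–Rg3–DOX. Its level there was 2.50 ± 0.69 CPM, or 0.497 CPM per kilobase, and all 3 samples stood far above the rest. CTD-3247F14.2, a long noncoding RNA 3649 bases from it on the same strand, had no count in the other 9 samples and 18, 24 and 13 with GO–Rg3–DOX.

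NPAS4, a factor induced by activity in neurons, had no untreated count, 0, 3 and 1 with GO, 3, 1 and 1 with GO–Rg3 and 23, 33 and 17 with GO–Rg3–DOX. IRF5, a factor of the interferon response, had 2, 0 and 1 untreated counts, 0, 4 and 4 with GO, 0, 2 and 1 with GO–Rg3 and 24, 54 and 39 with GO–Rg3–DOX. Both had scattered reads of at most 4 counts with GO and GO–Rg3. POU3F1, a POU domain factor of neural cells, was at 0 in all 9 other samples and had 20, 14 and 12 counts with GO–Rg3–DOX. It was the only gene of the set in a list of developmental transcription factors, 0.99% of the silent genes of that list against 0.21% of all eligible silent genes. A single gene is too few to read a difference from.

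A further 7 genes were grouped as genes of blood cells or the thymus: TBC1D10C, FCGR1A, GZMM, LST1, PRAM1, PSMB11 and GAB3. TBC1D10C, an inhibitor of Ras and calcineurin signalling in lymphocytes, had 0, 0 and 2 untreated counts, 1, 2 and 1 with GO, 4, 1 and 2 with GO–Rg3 and 25, 46 and 39 with GO–Rg3–DOX. FCGR1A, the high-affinity receptor for immunoglobulin G of monocytes, had no untreated or GO count, 0, 1 and 1 with GO–Rg3 and 22, 27 and 27 with GO–Rg3–DOX. The remaining genes of this group had 10 to 21 counts in each GO–Rg3–DOX sample, among them GZMM, a granzyme of cytotoxic cells, and PSMB11, the thymus-specific proteasome subunit.

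None of the defining markers of blood cells was in the set. Of 9 T cell and NK cell markers, 5 were silent in untreated cells and none was in the set. GNLY, of this list, had no untreated count and 8, 6 and 7 counts with GO–Rg3–DOX, below the 10 that the rule required. The summed level of the 9 ran from 1.02 to 1.15 CPM in untreated samples and from 1.79 to 2.39 CPM with GO–Rg3–DOX. The 4 B cell markers summed to 0.0471 to 0.0959 CPM in untreated cells and to 0.288 to 0.458 CPM with GO–Rg3–DOX. Of these 13 markers only CD8A had enough counts to be tested (log2 fold change 0.62, edgeR adjusted p = 0.0466). Of 6 myeloid markers, 4 were tested and 2 were called higher, CD14 and CSF1R. CD14 (log2 fold change 1.39, edgeR adjusted p = 2.34e-05) was no longer called with library totals alone (0.98). CSF1R (log2 fold change 2.17, edgeR adjusted p = 0.00125) rested on 3, 6 and 2 untreated counts and 11, 11 and 14 with GO–Rg3–DOX. ITGAM rose but stayed short of the limit of a call (log2 fold change 0.99, edgeR adjusted p = 2.98e-05), and LYZ was not called (log2 fold change −0.12, edgeR adjusted p = 0.359). MPO, the peroxidase of granulocytes, had no count in any sample. The summed level of the 6 reached 157 CPM in untreated samples and ran from 120 to 167 CPM with GO–Rg3–DOX, so that the groups overlapped. LYZ made up most of that sum, with 4672 to 6287 untreated counts, so the overlap says little about the other markers. Of 5 fibroblast markers, 4 were tested and all 4 were called higher, COL1A1, COL1A2, COL3A1 and PDGFRB, with log2 fold changes of 1.19 to 2.55. COL1A1 rested on 2, 6 and 3 untreated counts and 16, 22 and 9 with GO–Rg3–DOX. The call was lost for COL1A2 (0.77) and COL3A1 (0.96) with library totals alone. For COL1A1 it was lost without GO–Rg3–DOX replicate 2 or untreated replicate 1 or 3 (2.24 to 2.32). Of all tested genes 12.6% were called higher and 18.2% lower, and the difference of these short marker lists from those shares was not tested. The summed fibroblast level was 4.57 to 5.75 CPM in untreated samples and 13.0 to 16.3 CPM with GO–Rg3–DOX. No marker of endothelial cells, neurons, germ cells, keratinocytes or erythroid cells was in the set, and most of these had too few counts to be tested. The neuron marker RBFOX3 fell just short of the rule, with 0, 2 and 1 untreated counts and 9, 14 and 10 with GO–Rg3–DOX. The part of any of these markers in the result was not tested. All 10 hepatocyte and hepatoma markers were read, summing to 23922 to 24061 CPM in untreated samples and to 31602 to 36964 CPM with GO–Rg3–DOX. They did not move alike: 3 were called higher, APOA1, APOB and SERPINA1 (log2 fold changes 1.08 to 1.28), and 1 was called lower. That gene was HNF4A (log2 fold change −1.02, edgeR adjusted p = 1.77e-06). These calls were not tried under other settings. None of the 845 silent immunoglobulin and T cell receptor segments was in the set, against 0.21% of all eligible silent genes, and nothing is read from this. Fewer cells of a type and less RNA per cell cannot be told apart in these bulk samples.

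Striated muscle genes numbered 4, and none of them had an untreated count. ACTC1, the cardiac actin, had 0, 1 and 1 counts with GO, 1, 0 and 0 with GO–Rg3 and 23, 30 and 29 with GO–Rg3–DOX. TNNT2, cardiac troponin T, had 2, 0 and 2 counts with GO, 0, 1 and 2 with GO–Rg3 and 19, 21 and 17 with GO–Rg3–DOX. In both genes the GO–Rg3–DOX samples varied little, at 1.04 ± 0.08 CPM for ACTC1 and 0.729 ± 0.071 CPM for TNNT2. TRIM72, a membrane repair protein of muscle, and HHATL, a membrane protein of muscle, had 10 to 22 counts in each GO–Rg3–DOX sample.

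Genes for cell junctions and the epidermis included KIRREL2 and NPHS1, which encode interacting immunoglobulin superfamily proteins of the kidney filter and overlap on opposite strands, with KIRREL2 inside the annotated bounds of NPHS1. KIRREL2 had no count in untreated or GO samples, 2, 1 and 0 with GO–Rg3 and 50, 70 and 36 with GO–Rg3–DOX. NPHS1 had 0, 3 and 1 counts with GO, 0, 0 and 2 with GO–Rg3 and 24, 22 and 16 with GO–Rg3–DOX. The exons of the 2 genes overlapped by 3.14% of the exonic bases of KIRREL2. SBSN, suprabasin of the epidermis, had 1, 0 and 0 untreated counts, none with GO or GO–Rg3 and 35, 57 and 37 with GO–Rg3–DOX.

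ALOXE3, the epidermal lipoxygenase, was 1 of 2 genes that stood at both limits of the rule, with AL590763.5. It had 0, 2 and 1 untreated counts, 5, 4 and 8 with GO, 5, 4 and 6 with GO–Rg3 and 16, 10 and 15 with GO–Rg3–DOX. All of its GO and GO–Rg3 samples were above all of its untreated samples, and no other gene of the set had as many counts after either treatment. None of 217 silent keratin genes was in the set, where 0.21% of all eligible silent genes were, a share too low to tell from 0 in a list of that size.

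Digestive enzyme genes were CTRB1, CTRB2 and CTRC, chymotrypsinogen genes of the exocrine pancreas. CTRB2 had 0, 0 and 1 untreated counts, 0, 0 and 1 with GO, 3, 0 and 0 with GO–Rg3 and 34, 43 and 21 with GO–Rg3–DOX, and CTRB1 was at 0 in the other 9 samples and had 10, 16 and 19 with GO–Rg3–DOX. CTRB1 and CTRB2 are near-identical neighbours, 11826 bases apart, and reads may be split between them. Of the 150-base stretches of their transcripts, 21.8% of those of CTRB1 occurred also in CTRB2 transcripts, and 14.8% of those of CTRB2 in CTRB1 transcripts. CTRC had 15, 16 and 10 counts with GO–Rg3–DOX, and the dipeptidase gene DPEP2 26, 33 and 19.

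FGD5, an exchange factor for CDC42 known from endothelial cells, had no untreated count, 5, 0 and 0 with GO, 1, 0 and 4 with GO–Rg3 and 56, 97 and 44 with GO–Rg3–DOX. It was at least 93.5-fold above the floor, the highest bound among the 37 genes without an untreated count. PAK6, a kinase that acts downstream of CDC42, had 0, 1 and 1 untreated counts, 1, 2 and 1 with GO, 2, 0 and 0 with GO–Rg3 and 22, 30 and 23 with GO–Rg3–DOX. The reads of both were thus few outside GO–Rg3–DOX, with single samples of up to 5.

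Among genes of cilia and sperm, C1orf173 (ERICH3) had 1, 0 and 1 untreated counts, 0, 1 and 6 with GO, 3, 1 and 3 with GO–Rg3 and 53, 53 and 43 with GO–Rg3–DOX. Its GO–Rg3–DOX samples lay at 1.91 ± 0.27 CPM, clear of the single GO sample with 6 counts. TEKT2, a tektin of the sperm tail, had 16, 19 and 14 counts with GO–Rg3–DOX, and TCTE1, a subunit of the dynein regulatory complex, had 14, 17 and 10. Of 164 silent cancer-testis antigen genes, none was in the set, against 0.21% of all eligible silent genes, and nothing is read from this in a list of that size.

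Genes of the nervous system and senses were PHYHIP, MOBP, OR9G1, BEST2, FAM131B and DLG3. PHYHIP had no untreated or GO count, 1, 0 and 1 with GO–Rg3 and 40, 49 and 16 with GO–Rg3–DOX. MOBP, a protein of myelin, had 1, 2 and 0 untreated counts, 2, 3 and 1 with GO, 0, 1 and 0 with GO–Rg3 and 30, 48 and 16 with GO–Rg3–DOX. In both genes the third GO–Rg3–DOX sample was low, and their spread was wide, at 1.34 ± 0.63 CPM and 1.19 ± 0.56 CPM. OR9G1 was the only one of 1008 silent olfactory receptor genes in the set, and none of 158 silent ion channel and neurotransmitter receptor genes was. The share over all eligible silent genes was 0.21%, so nothing is read from these low counts.

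Of the remaining coding genes with high minimum counts, FAM90A1 had 28, 43 and 28 counts with GO–Rg3–DOX and XKR7 26, 37 and 37. LRRC43 had 27, 22 and 21 and FNDC7 17, 34 and 18. None of these 4 had more than 4 counts in a sample without doxorubicin.

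Noncoding RNAs held the gene with the most counts. AC098823.3 (LINC01907, chr2:231554780-231565244 in GRCh37, minus strand) had 0, 1 and 1 untreated counts, 1, 2 and 1 with GO, 2, 0 and 0 with GO–Rg3 and 74 to 136 with GO–Rg3–DOX. In CPM its 3 GO–Rg3–DOX samples were at 3.05, 4.89 and 4.84, with a mean of 4.26 ± 1.05. No other annotated gene overlapped it or lay within 5000 bases. The ratio of GO–Rg3–DOX to untreated was 240 with an exact 95% interval of 65.9 to 1989. That interval covers counting error only, not the spread between samples, and the same counts chose the gene, so it is no test. LINC00691 (chr3:24137760-24144729, minus strand) had no count in untreated or GO samples, 2, 2 and 0 with GO–Rg3 and 53, 76 and 45 with GO–Rg3–DOX.

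RP11-196G18.3, which overlaps FCGR1A on the opposite strand, had 0, 0 and 1 untreated counts, none with GO or GO–Rg3 and 42, 62 and 50 with GO–Rg3–DOX. RP11-277B15.2 had 31, 66 and 39 counts with GO–Rg3–DOX, CTD-2358C21.3 31, 57 and 64, XXbac-BPG308K3.6 28, 29 and 33, and RP11-96D1.6 26, 51 and 40. Per kilobase of exon, the noncoding CTD-2358C21.3 at 3.57 CPM and RNU2-17P, a small nuclear RNA pseudogene by its symbol, at 3.72 CPM were the highest of the set. The pseudogene NPAP1P3 had 0, 1 and 0 untreated counts, 0, 1 and 0 with GO, none with GO–Rg3 and 56, 66 and 41 with GO–Rg3–DOX, and its relative NPAP1P2 was at 0 in the other 9 samples and had 15, 17 and 17. The 2 share 150-base stretches, 15.9% of those of NPAP1P3 and 21.1% of those of NPAP1P2.

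The GO–Rg3–DOX samples were not alike for these genes. Replicate 2 held the highest CPM for 48 of the 87 genes, against 26.5% of the other tested genes, and replicate 1 for 18, against 38.6%. The median coefficient of variation over the 3 samples was 22.9% for the set and 12.1% for all tested genes, and low counts vary more. Mitochondrial genes took 19.4%, 13.9% and 12.8% of the counts in GO–Rg3–DOX replicates 1 to 3, from 5.31% to 6.28% in untreated samples, from 12.1% to 24.1% with GO and from 6.89% to 7.42% with GO–Rg3, and the part of this share in the result was not tested.

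Neither GO nor GO–Rg3 brought any of the 87 genes to 10 counts in each of its samples. By the same rule applied to those treatments, 2 of the 41523 eligible silent genes were switched on with GO, or 0.00482%, and none with GO–Rg3, and neither of the 2 was in the set. In the mirrored direction, 18 of 40423 genes that were silent with GO–Rg3–DOX had at least 10 counts in each untreated sample, or 0.0445%. The highest single count in the set was 8 with GO and 6 with GO–Rg3. Summed over the 3 samples, 2 genes reached 10 counts with GO, ALOXE3 and RP11-909N17.3, and ALOXE3 alone did so with GO–Rg3. The totals were higher with GO than in untreated cells for 45 genes and lower for 12, and higher with GO–Rg3 for 43 and lower for 18. Low totals in untreated cells were a condition of the rule, so these counts are a description.

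The rule used neither GO nor GO–Rg3 samples, but the 87 genes passed the filter on low counts through their GO–Rg3–DOX samples alone, and at 0 to 8 counts they could hardly be called between these 2 treatments. By edgeR's quasi-likelihood test, 0 of the 87 genes passed an adjusted p of 0.01 together with a log2 fold change beyond 1 in either direction, and DESeq2 called 0 as well. Of all tested genes 2.77% were called, 0.702% higher and 2.07% lower, and nothing is read from the set against this share. An unadjusted p below 0.05 was reached by 1 of the 87 genes (1.15%), against 39.8% of all tested genes. At these low counts nothing is read from that difference. The 1 gene was TCTE1, with 2, 3 and 3 counts with GO and none with GO–Rg3 (edgeR, adjusted p = 0.0132, lower in 3 of 3 GO–Rg3 samples). For most of the set a difference between GO and GO–Rg3 was not detectable at this depth.

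The genes beside or across the set were then examined, since the counts are assigned by position. Of 86 genes with a position, 39 overlapped another gene of the table and 47 did not, and 70 overlapped a gene or had one within 5000 bases. The overlap was on the same strand for 13 genes, on the opposite strand for 32 and between exons for 29. It involved a gene of at least 1 CPM with GO–Rg3–DOX for 17. In HHATL-AS1 alone at least 50% of the exonic bases lay in the exons of another gene, CCDC13. The library kit kept the strand, but the sources used here do not say whether the counting did, so reads of overlapping genes on opposite strands may have been shared.

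Genes that overlapped the set or lay next to it moved in both directions. Of these neighbours 98 were tested. In GO–Rg3–DOX against untreated cells, edgeR called 32 of them higher (32.7%) and 16 lower (16.3%), where 12.6% of all tested genes were higher and 18.2% lower, 30.8% in all. The difference between the neighbours and all genes was not tested. Counting instead the overlapping genes and the nearest tested gene on each side, 36 of 177 were higher (20.3%) and 32 lower (18.1%). Among neighbours with at least 1 CPM in untreated cells, 11 of 71 were higher (15.5%), against 8.57% of all genes at that level, and 15 were lower (21.1%), against 21.5%. With at least 10 counts in every sample compared, 19 of 80 were higher (23.8%), against 11% of all genes, and 15 were lower (18.8%), against 18.4%. With library totals alone as the scaling, which moved the median log2 difference of all genes from −0.06 to −0.47, the 98 neighbours split into 24 higher and 26 lower, and all genes into 6.02% higher and 28.9% lower.

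**Figure D3:**
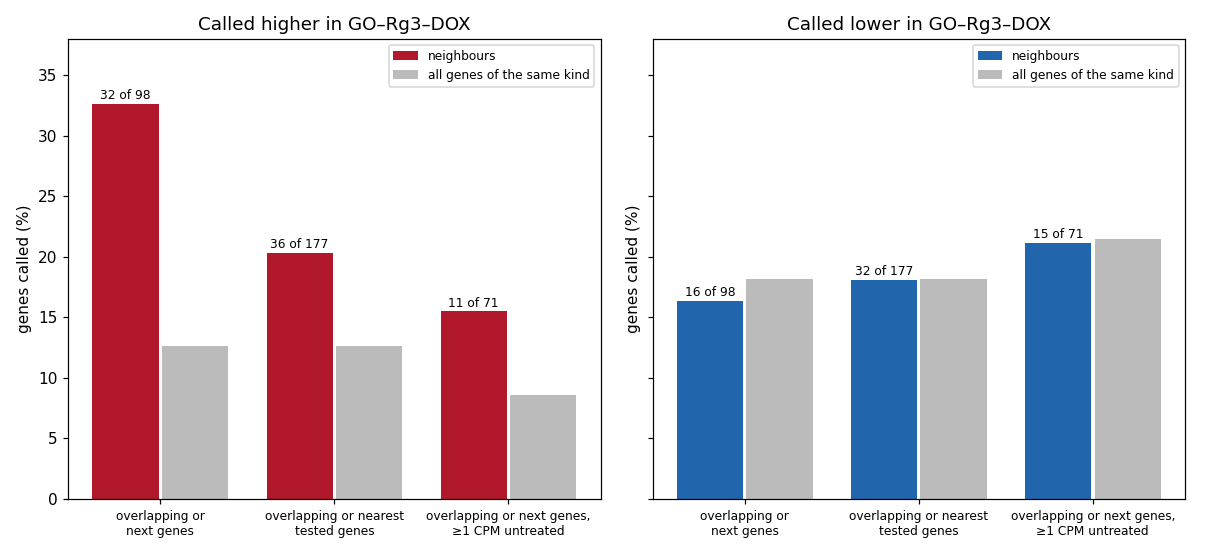
Percentage of genes called higher (left) or lower (right) in GO–Rg3–DOX against untreated cells, for neighbours of the set in 3 definitions (coloured bars, with their counts) and for all genes tested in the same way (grey bars). The coloured bars stand above the grey ones for higher genes in each definition and at or just below them for lower genes.

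By position, the share called higher was 8 of 19 (42.1%) for the nearest tested gene upstream on the same strand within 10000 bases, and 11 of 54 (20.4%) for that gene at any distance. Of the 18 tested genes that overlapped the set, 5 were higher and 2 lower. In all, 29 genes of the set, or 33.7% of 86, had a gene called higher, outside the set, that overlapped them or lay within 10000 bases. The share was 4.66% for the 34168 other silent genes and 16.4% for 16536 other tested genes, and the difference between these shares was not tested. The other silent genes were shorter (median 527 against 2709 exonic bases) and less often protein-coding (14.3% against 60.5%), so these shares compare unlike genes. The remaining 57 genes with a position had no such neighbour.

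Transcripts downstream of a strongly read gene were among the pairs. RPL7P19, a pseudogene of a ribosomal protein, lies 4440 bases downstream of EGR1 on the same strand. It had 1, 0 and 0 untreated counts, none with GO or GO–Rg3 and 23, 25 and 18 with GO–Rg3–DOX. EGR1, an immediate early transcription factor, was at 7.14 ± 1.35 CPM in untreated cells, 17.7 with GO, 5.51 with GO–Rg3 and 84.5 ± 2.33 with GO–Rg3–DOX (log2 fold change 3.56 ± 0.15 SE, edgeR adjusted p = 9.26e-11, n = 3). Both genes were thus highest with GO–Rg3–DOX. RPL7P19 and EGR1 and the pairs of SELPLG, MAFA, CEL and FAM83A were chosen after their values were seen.

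CTD-2369P2.8 (ICAM4-AS1, chr19:10396477-10399695, minus strand) lies across ICAM1 and ICAM4 and next to ICAM5, adhesion molecule genes on the opposite strand. It had 0, 1 and 0 untreated counts, 2, 3 and 1 with GO, 3, 1 and 2 with GO–Rg3 and 64, 55 and 52 with GO–Rg3–DOX. ICAM1 was at 204 ± 7.77 CPM in untreated cells, 504 with GO, 321 with GO–Rg3 and 301 ± 16.3 with GO–Rg3–DOX, and was not called (log2 fold change 0.56, edgeR adjusted p = 0.00152). Exons of ICAM1 cover 25.3% of the exonic bases of CTD-2369P2.8, and exons of ICAM4 44.7%. Of these 2 overlapping genes only ICAM1 reached 1 CPM with GO–Rg3–DOX. When the strand is ignored, 59.0% of the 150-base stretches of CTD-2369P2.8 occur in ICAM1 or ICAM4 transcripts. ICAM5 was overexpressed from 0.528 ± 0.092 CPM to 8.91 ± 1.71 CPM (log2 fold change 4.07, edgeR adjusted p = 1.48e-08).

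RP11-689B22.2 overlaps SELPLG, the selectin P ligand gene, on the opposite strand, with no exonic overlap. It had 0, 0 and 2 untreated counts, 1, 0 and 1 with GO, 0, 0 and 1 with GO–Rg3 and 22, 41 and 26 with GO–Rg3–DOX. SELPLG was overexpressed from 0.306 ± 0.105 CPM to 7.71 ± 1.29 CPM (log2 fold change 4.61, edgeR adjusted p = 6.45e-10). RP11-909N17.3 (MAFA-AS1) lies 31 bases from MAFA, a transcription factor of pancreatic beta cells, and had 2, 0 and 1 untreated counts, 3, 5 and 3 with GO, 5, 0 and 2 with GO–Rg3 and 25, 20 and 19 with GO–Rg3–DOX. MAFA was overexpressed from 0.0848 ± 0.0407 CPM to 4.14 ± 0.26 CPM (log2 fold change 5.61, edgeR adjusted p = 1.32e-08). Both neighbours were near silence in untreated cells too.

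LTA lies 1240 bases upstream of TNF on the same strand, and LST1 3601 bases from LTB, the gene for lymphotoxin beta. TNF was overexpressed from 0.35 ± 0.11 CPM to 2.44 ± 0.12 CPM (log2 fold change 2.82, edgeR adjusted p = 5.26e-08), with 0.582 CPM with GO and 0.642 with GO–Rg3. LTB was overexpressed from 0.27 ± 0.10 CPM to 0.824 ± 0.136 CPM (log2 fold change 1.57, edgeR adjusted p = 0.000823), while NFKBIL1, 13224 bases upstream of LTA, was under-expressed (log2 fold change −1.19, edgeR adjusted p = 0.00144), a call lost without GO–Rg3–DOX replicate 3 (−0.96). LTA and LST1, 11799 bases apart, were thus read in a stretch where 2 neighbours rose and 1 fell.

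CELP is a pseudogene of CEL, the bile salt lipase gene of the pancreas, and had 17, 21 and 10 counts with GO–Rg3–DOX. Every 150-base stretch of its transcript (100%) occurs in another annotated gene that overlaps it and is not in the count table, and 35.1% occur in a gene elsewhere, CEL, so that some reads may be of CEL. CEL, 10699 bases upstream, was overexpressed from 1.47 ± 0.27 CPM to 8.72 ± 0.64 CPM (log2 fold change 2.56, edgeR adjusted p = 2.2e-08). LRRC43 lies 209 bases from B3GNT4, a glycosyltransferase gene, which was overexpressed from 0.271 ± 0.181 CPM to 8.13 ± 1.77 CPM (log2 fold change 4.82, edgeR adjusted p = 1.29e-08). KIRREL2 lies 762 bases from APLP1, which was overexpressed from 0.793 ± 0.039 CPM to 4.97 ± 0.69 CPM (log2 fold change 2.64, edgeR adjusted p = 7.69e-08). In each of these 3 pairs the neighbour lay on the same strand as the gene of the set.

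**Figure D4:**
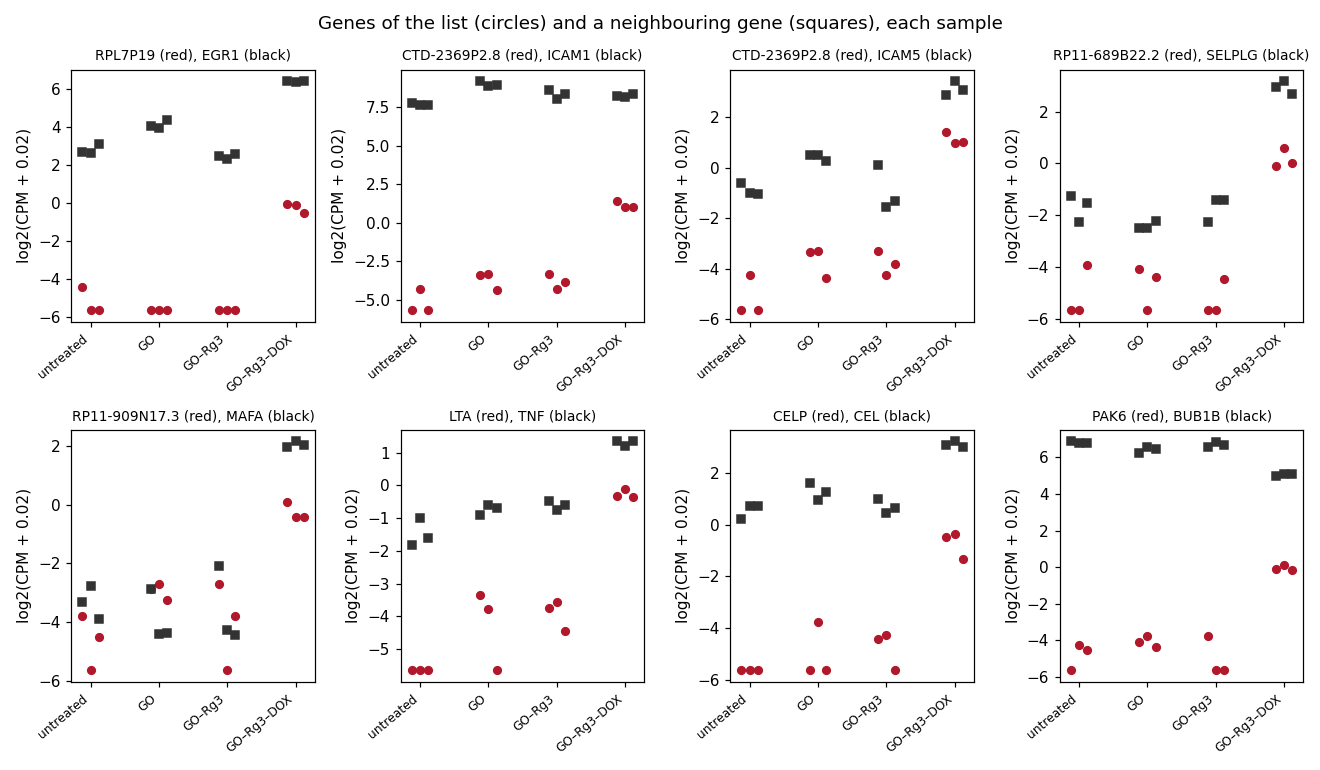
Levels, as log2(CPM + 0.02), of a gene of the set (red circles) and of a neighbouring gene (black squares) in each of the 12 samples, by treatment, with 3 points per group. EGR1, ICAM5, SELPLG, MAFA, TNF and CEL are highest in GO–Rg3–DOX samples, ICAM1 is highest with GO, and BUB1B is lowest in GO–Rg3–DOX samples.

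Other pairs near the set included TBC1D10C with CARNS1, C17orf99 with TMC8, FAM83A-AS1 with FAM83A, and RP11-54O7.11 with ISG15. CARNS1, 4878 bases from TBC1D10C, TMC8, 3416 bases from C17orf99, and FAM83A, which overlaps FAM83A-AS1, were overexpressed by log2 fold changes of 2.65, 3.12 and 4.35. RP11-54O7.11 had 0, 1 and 2 untreated counts, 2, 3 and 3 with GO, 2, 2 and 0 with GO–Rg3 and 32, 42 and 30 with GO–Rg3–DOX. It overlaps ISG15, a ubiquitin-like protein of the interferon response, which was overexpressed from 5.50 ± 0.74 CPM to 17.3 ± 2.5 CPM (log2 fold change 1.65, edgeR adjusted p = 7.67e-05).

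Members also sat beside genes that were under-expressed. AC098823.3 lies 12312 bases from CAB39, an adaptor of the kinase LKB1, which fell from 197 ± 4.38 CPM to 96.7 ± 5.76 CPM (log2 fold change −1.03, edgeR adjusted p = 2.54e-07). Its change lay at the edge of the limit, with −0.98 without GO–Rg3–DOX replicate 1, −0.99 with only the 6 samples compared and −0.96 with RLE scaling or DESeq2, where it was no longer called. LINC00691 lies 13914 bases downstream of THRB, a thyroid hormone receptor gene, which fell from 82.2 ± 3.87 CPM to 38.4 ± 2.18 CPM (log2 fold change −1.10, edgeR adjusted p = 5.44e-07). PAK6 overlaps BUB1B, a kinase of the mitotic checkpoint, on the same strand, and BUB1B fell from 112 ± 4.61 CPM to 33.3 ± 1.81 CPM (log2 fold change −1.75, edgeR adjusted p = 3.62e-09). IL6 overlaps STEAP1B on the opposite strand, and STEAP1B fell from 4.25 ± 0.39 CPM to 1.52 ± 0.24 CPM (log2 fold change −1.48, edgeR adjusted p = 3.33e-06).

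Overlapping genes of high level were also found without a call. FGD5-AS1, across FGD5 on the opposite strand, was at 279 ± 6.28 CPM in untreated cells and 199 ± 20.4 CPM with GO–Rg3–DOX (log2 fold change −0.49, edgeR adjusted p = 0.00897), and PPP1CA, across TBC1D10C, at 475 ± 12.5 and 788 ± 8.18 CPM (log2 fold change 0.73, edgeR adjusted p = 3.21e-05). FAM120B, across DLL1, was at 43.7 ± 0.84 and 27.1 ± 1.01 CPM (log2 fold change −0.69, edgeR adjusted p = 4.09e-06). Of these 3, PPP1CA was higher with GO–Rg3–DOX and the other two lower, none beyond the limit of a call.

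Within the set, 7 pairs of genes, 14 genes in all, lay within 100000 bases of each other. Those of FCGR1A and RP11-196G18.3, NPHS1 and KIRREL2, and HHATL and HHATL-AS1 overlapped on opposite strands. Those of PF4 and PPBP, LTA and LST1, and CTD-3247F14.2 and EGR3 lay on the same strand, and CTRB1 and CTRB2 on opposite strands. Of 86 genes with transcripts in the annotation, 53 shared no 150-base stretch with a transcript of another gene, 33 shared some and 11 shared at least 20% of them. The stretches of 10 genes were shared with a gene that did not overlap them. PF4 shared 36.9% and PPBP 26.3%, in both cases with an annotated gene that overlaps both, and RP11-196G18.3 37.7%.

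The limits of the rule cut through a continuous range. Just inside the GO–Rg3–DOX limit were AL022393.7 with 11, 12 and 10 counts, DLG3 with 10, 13 and 10 and GAB3 with 10, 12 and 12, and 20 genes of the set had a lowest count of 10. Just outside were MMRN2 with 29, 23 and 9 counts, TAS1R1 with 9, 23 and 17 and GUCA2A with 22, 16 and 9, and 41 genes in all had a lowest count of 8 or 9. At the untreated limit, 11 genes of the set had a total of 3, among them AL590763.5, ALOXE3 and RP11-420K14.3, and 17 genes just outside had 4, among them GDNF, PDE6G and RP3-476K8.3.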

How the data were processed

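Huh7 libraries were made by the authors with a stranded mRNA kit and counted per Ensembl gene on GRCh37 with featureCounts, per the labels. The deposited table holds the authors' unnormalized counts of reads for 63677 genes in 12 samples. The annotation release and the strand setting of the counting are not given in the sources used here. Samples were grouped by their labels, which also give the doses, and the treatment time was taken from the study's text.

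From the counts, the set was chosen as described, and 1 further gene that met the limits is not reported here. The genes and lists were chosen with earlier results of these data known. The 17092 genes that reached 10 counts in 3 or more samples were scaled by TMM and fitted with edgeR 4.0.16 (quasi-likelihood test, R 4.3.3, all 12 samples, no block, Benjamini-Hochberg adjustment). CPM are counts scaled to the TMM library size. The DESeq2 1.42.0 Wald test was an alternative. The fit was tested on simulated data. Positions and exons came from GENCODE v44 lifted to GRCh37, which held 86 of the 87 identifiers, and promoters from RefSeq (GRCh38.p14). Python 3.11.15 with pandas 2.3.3 was used for the tables.

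Named were the 25 protein-coding and the 10 other genes with the highest lowest count after GO–Rg3–DOX, and genes at the limits of the rule. Of the genes that overlap the former or lie next to them only some were named, so the named pairs are not a full list. Further genes were named by role after their values were seen. Gene names are those of the table.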

Additional observations from a re-analysis of the deposited data

How the results depend on the processing

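The size of the set followed its limits. It held 37 genes with 0 untreated counts required, 198 with at most 10, 241 with at least 5 counts in each GO–Rg3–DOX sample and 33 with at least 20. After rescaling to equal effective depth it held 86 of the 87 and 39 further genes. Without 1 untreated sample it held 89 to 106 genes, and without 1 GO–Rg3–DOX sample 91 to 131, the highest without replicate 1. No alternative brought a gene of the set to 10 counts in each GO or GO–Rg3 sample.

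In GO–Rg3 against GO, no gene of the set could be tested with at least 10 counts in every sample compared or with only the 6 samples compared. The counts of 0 under the other alternatives therefore say nothing about stability. At an adjusted p below 0.05, 1 gene passed, TCTE1 (adjusted p 0.0132 to 0.0415 over the alternatives), and nothing is read from this count.

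Of the neighbours, 19 were called higher with at least 10 counts in every sample compared, and 11 with at least 1 CPM in untreated cells, an alternative added after seeing the data. Called lower were 26 with library totals alone, and 32 of 177 with the nearest tested genes, also added after seeing the data. Leaving out 1 sample gave 27 to 32 higher and 13 to 18 lower. Of 409 values for the named neighbours, 7 markers of other cell types and TCTE1 under other settings, none changed sign. CAB39 lost its call in 4 settings, COL1A1 in 3 and NFKBIL1, CD14, COL1A2 and COL3A1 in 1 each, as given beside their values, and FAM120B gained one with library totals alone (log2 fold change −1.10).

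Genes that overlapped another gene numbered 17 with a neighbour of at least 1 CPM, 13 on the same strand and 70 within 5000 bases. Same-numbered samples correlated little (mean r 0.0914, 18 pairs from −0.0239 to 0.253, other numbers −0.0451), so the numbers were not taken as pairs. With a replicate block, 33 neighbours were higher and 17 lower, and 0 genes of the set were called in GO–Rg3 against GO, where few could be.

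Depth limits the set: at 0 to 8 counts, values after GO and GO–Rg3 cannot be ranked.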
